A study of Mus musculus with 7 samples.

Results

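The Wnt receptors, modulators and effectors described here are 10 genes: Sfrp1, Sfrp2, Fzd1, Fzd5, Lrp6, Ctnnb1, Axin2, Lef1, Tcf7l1 and Tcf7l2. They were taken by gene name from the transcript tables, which list 16143 genes with 55404 measured transcripts, and they account for 49 of those transcripts. Levels are in TPM, a length-scaled share of all transcripts in a library, and were summed over the transcripts of each gene. RNA came from retinas of ICR mice, an outbred stock, that were electroporated at embryonic day 17.5, kept as explants for 2 days, dissociated and sorted for EGFP. The 4 shKmt2f libraries received a plasmid for a short hairpin RNA that targets Kmt2f, another name of the histone H3 lysine 4 methyltransferase gene Setd1a. The 3 control libraries received a control plasmid, and all 7 received a plasmid for EGFP, by which cells were sorted. The purity of the sort and the share of sorted cells that also held the hairpin or control plasmid were not measured here. The hairpin sequence, the promoters of the plasmids and the cell types they are active in are not given in the sources used here. The labels do not say whether replicate libraries stem from different animals or cultures. The p-values therefore cover only the spread among these 7 libraries, and that spread may be technical.

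Wnt proteins bind Frizzled receptors (Fzd) together with the co-receptors Lrp5 and Lrp6, and secreted Frizzled-related proteins (Sfrp) bind Wnts outside the cell. Without a Wnt signal, a destruction complex built on Axin and Apc marks β-catenin, the product of Ctnnb1, for degradation; with it, β-catenin accumulates and joins the DNA-binding proteins Lef1, Tcf7l1 and Tcf7l2 at target genes. In the embryonic mouse eye this β-catenin branch is known to be active at the ciliary margin, the rim of the retina, while Fzd5 and Sfrp2 are known as genes of retinal progenitors.

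Between 11840 and 12318 genes reached 1 TPM in a library, and the sequencing depth behind these values is unknown, since TPM carries no read total. The longest Setd1a transcript, of 6487 bases, stood at 0.385 ± 0.0451 TPM in shKmt2f libraries (SD, n = 4) and 0.830 ± 0.112 TPM in control libraries (SD, n = 3), with no overlap. The other 3 Setd1a transcripts, of 730, 389 and 315 bases, hold most of the gene's TPM and overlapped between groups. Their means were 0.357, 2.54 and 3.65 TPM in shKmt2f and 0.441, 2.75 and 4.92 TPM in control libraries. Summed TPM of 7 neurogenic progenitor markers lay between 1956 and 2039 in shKmt2f libraries and between 832 and 1223 in control libraries, and 3 of the 7 were higher in shKmt2f by limma at an adjusted p of 0.05. Of 8 ganglion cell markers 4 were tested and all 4 were higher, with sums of 34.97 to 40.4 TPM in shKmt2f and 14.05 to 21.3 TPM in control libraries. Of these, Nefl reached 1 TPM in 3 libraries through its shKmt2f values, 1.68 to 2.46 TPM, against 0.506 to 1.17 TPM in control libraries. The count of 4 therefore depends in part on the filter. Among those not tested, Pou4f2, Rbpms and Sncg overlapped between groups, and Pou4f1 did not, at 0.375 to 0.489 TPM in shKmt2f and 0.186 to 0.199 TPM in control. Of 10 retinal progenitor markers 1 was lower and 0 were higher, with sums of 810 to 920 TPM in shKmt2f and 844 to 1113 TPM in control libraries. Of 6 tested photoreceptor markers 2 were higher, with sums of 187 to 275 TPM in shKmt2f and 113 to 153 TPM in control libraries. The 3 pigment epithelium markers analysed here summed to 5.67 to 7.62 TPM in shKmt2f and 3.80 to 4.42 TPM in control libraries. Most of this was Dct, the 1 tested, which was higher, at 5.34 to 7.38 TPM in shKmt2f and 3.47 to 4.20 TPM in control. Tyrp1 and Pmel reached at most 0.324 TPM and overlapped between groups, and Rpe65, Tyr, Mlana and Ttr were not analysed here. Of 6 tested amacrine and of 3 tested horizontal cell markers 1 each was higher. Amacrine sums were 161 to 178 TPM in shKmt2f and 147 to 162 TPM in control libraries. Horizontal sums were 16.2 to 21.1 TPM and 10.6 to 16.6 TPM in the same order. The horizontal markers Onecut1 and Onecut2 reached 1 TPM only in shKmt2f libraries and stayed at or below 0.861 and 0.950 TPM in control libraries. Prox1, the remaining horizontal marker tested, overlapped between groups, at 12.6 to 17.7 TPM in shKmt2f and 9.08 to 15.7 TPM in control libraries. The horizontal count therefore depends on the filter. Mueller glia markers summed to 796 to 941 TPM in shKmt2f and 752 to 962 TPM in control libraries, with overlap. Of 5 tested 1 was lower, Glul, at 172 to 184 TPM in shKmt2f and 229 to 286 TPM in control libraries. Rlbp1, Slc1a3, Apoe and Kcnj10 overlapped between groups. Aqp4, too low to be tested, lay the other way, at 0.156 to 0.296 TPM in shKmt2f and 0.0164 to 0.0786 TPM in control. The 4 mesenchyme markers analysed here summed to 2.00 to 2.56 TPM in shKmt2f and 0.798 to 1.49 TPM in control libraries, and lens markers reached at most 0.456 TPM in any of the 7 libraries. Ciliary margin markers were low, at 11.9 to 18.3 TPM in shKmt2f and 9.32 to 18.9 TPM in control libraries over 6 genes, with Otx1 and Mitf not analysed here. The part these marker groups have in the values below was not tested, and in such bulk samples fewer cells of a type and less RNA per cell cannot be told apart.

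At the level of whole genes, no member passed. Of the 10 genes, 9 reached 1 TPM in at least 3 libraries and were tested with limma on log2(TPM + 1) over all genes, and 0 passed at a Benjamini-Hochberg adjusted p of 0.05, where 14.1% of all 12456 tested genes passed. Of the 9, 1 gene, Lrp6, had an unadjusted p below 0.05, against 32.3% of all tested genes. Lrp6 was also the 1 member whose 4 shKmt2f values did not overlap the 3 control values, which was so for 28.9% of all tested genes, and with shKmt2f higher for 19.2%. Fold changes are shKmt2f minus control on the log2(TPM + 1) scale, which understates changes of low genes. They ranged from -0.35 for Fzd5 to 0.57 for Lrp6, with 5 members above 0 and 4 below, and their median was 0.041, beside 0.088 over all tested genes.

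**Figure D1:**
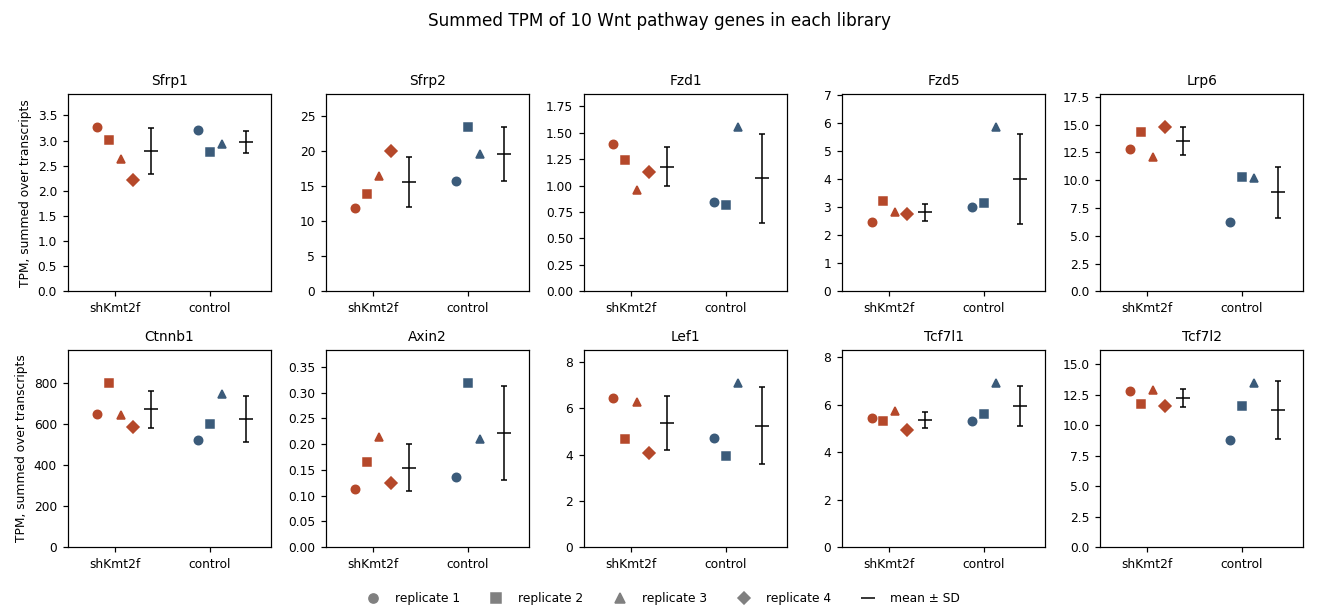
Summed TPM of each of the 10 genes (vertical axes, linear and from 0) in the 4 shKmt2f libraries at left of each panel and the 3 control libraries at right, with the mean ± SD beside each group. Only in the Lrp6 panel do the groups not overlap, with shKmt2f libraries between 12.1 and 14.8 TPM and control libraries between 6.24 and 10.3 TPM.

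The members differ widely in level. Ctnnb1 stood highest, between 523 and 802 TPM over the 7 libraries, well apart from Sfrp2, the next, at 11.9 to 23.4 TPM. Sfrp2, Tcf7l2, Lrp6, Tcf7l1, Lef1, Fzd5 and Sfrp1 followed in the order of their means, and the range of each overlapped that of the next. Compared library by library, Lrp6 was above Tcf7l1 and Lef1 above Fzd5 in all 7 libraries. Sfrp2 was above Tcf7l2 in 6 of 7 libraries, Tcf7l2 above Lrp6 and Fzd5 above Sfrp1 in 5, and Tcf7l1 above Lef1 in 4. This order holds for sums over all transcripts, short noncoding ones included. Over protein-coding transcripts only, Lrp6 lay below Tcf7l1 in all 7 libraries, at 1.66 to 4.13 TPM against 4.92 to 6.92 TPM. Lef1 likewise lay below Fzd5, at 0.584 to 1.25 TPM against 2.48 to 5.87 TPM. These comparisons of levels were not tested. Fzd1, at 0.812 to 1.55 TPM, lay below all Sfrp1 values, and Axin2, at 0.112 to 0.319 TPM, below all Fzd1 values.

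The secreted modulators Sfrp1 and Sfrp2 bind Wnts through a domain like that of the Frizzled receptors. Sfrp1 (ENSMUSG00000031548, chromosome 8, 23411502 to 23449632, plus strand of GRCm38) has 1 listed transcript. It had 3.27, 3.02, 2.63 and 2.22 TPM in shKmt2f libraries and 3.21, 2.78 and 2.93 TPM in control libraries. The groups overlap and lie around the same level, with a log2 fold change of -0.076 (SE 0.15) and a limma adjusted p of 0.772.

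Sfrp2 (ENSMUSG00000027996, chromosome 3, 83766321 to 83774316, plus strand) had 11.9, 13.9, 16.5 and 20.1 TPM in shKmt2f libraries and 15.7, 23.4 and 19.5 TPM in control libraries. With a log2 fold change of -0.32 (SE 0.20) and a limma adjusted p of 0.321 it did not pass. Its TPM is divided between a coding transcript of 2003 bases, 69.9% of the gene's mean TPM, and a processed transcript of 382 bases with no coding region. The coding transcript had 9.65, 10.9, 10.3 and 12.3 TPM in shKmt2f libraries and 11.97, 15.4 and 13.98 TPM in control libraries. These groups overlap by 1 pair, shKmt2f replicate 4 and control replicate 1. The log2 fold change was -0.33 (SE 0.14), with a limma adjusted p of 0.217. The authors' deposited table gives it an effect of -0.33, on a natural log scale, and q = 0.0398. The 382-base transcript was more spread out, at 2.26, 2.94, 6.18 and 7.78 TPM in shKmt2f and 3.70, 7.96 and 5.56 TPM in control libraries, and it carries most of the scatter of the sum. Its log2 fold change was -0.29 (SE 0.39), with a limma adjusted p of 0.707.

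Among the receptors, Fzd1 (ENSMUSG00000044674, chromosome 5, 4753839 to 4758035, minus strand), a single-exon Frizzled gene, had 1.39, 1.24, 0.955 and 1.13 TPM in shKmt2f libraries. Control libraries had 0.841, 0.812 and 1.55 TPM, so that control replicate 3 exceeded all others. The log2 fold change was 0.090 (SE 0.17), with a limma adjusted p of 0.754.

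Fzd5 (ENSMUSG00000045005, chromosome 1, 64730558 to 64737751, minus strand), a Frizzled receptor gene of retinal progenitors, had 2.48, 3.22, 2.82 and 2.78 TPM in shKmt2f libraries and 3.02, 3.17 and 5.87 TPM in control libraries. The groups overlap, and control replicate 3 stands apart. The log2 fold change was -0.35 (SE 0.21), with a limma adjusted p of 0.287, and -0.10 without control replicate 3. Both listed transcripts hold the same 1755 coding bases and differ in the untranslated part. The longer, of 6915 bases and 80.1% of the gene's mean TPM, had 1.99, 2.05, 2.10 and 2.61 TPM in shKmt2f libraries and 2.94, 3.14 and 3.88 TPM in control libraries. All shKmt2f values lie below all control values. The means were 2.19 ± 0.282 TPM in shKmt2f (SD, n = 4) and 3.32 ± 0.496 TPM in control libraries (SD, n = 3). The log2 fold change of this transcript was -0.44 (SE 0.17), which did not pass in limma over all transcripts, adjusted p = 0.165. In the authors' deposited table its effect is -0.50 with q = 0.00054, the smallest q of any member transcript. The shorter transcript, of 2895 bases, was below the level for limma, at 0.487, 1.17, 0.722 and 0.179 TPM in shKmt2f and 0.0758, 0.0276 and 1.99 TPM in control libraries. Its exact permutation test, two-sided over all 35 ways to assign 4 and 3 libraries, gave p = 0.514. Control replicate 3 is the high value in this transcript, which sets it apart in the gene sum as well.

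Fzd5 and Sfrp2 carry the 2 member transcripts with a negative effect and q below 0.05 in the authors' deposited table, although neither passed in limma. Their promoters are shown for that reason, 250 bases before to 50 after the RefSeq start on GRCm38.p6, with each CG pair in capitals. The Fzd5 window is chr1:64737701-64738000 on the minus strand and the Sfrp2 window chr3:83766071-83766370 on the plus strand.
Fzd5 promoter: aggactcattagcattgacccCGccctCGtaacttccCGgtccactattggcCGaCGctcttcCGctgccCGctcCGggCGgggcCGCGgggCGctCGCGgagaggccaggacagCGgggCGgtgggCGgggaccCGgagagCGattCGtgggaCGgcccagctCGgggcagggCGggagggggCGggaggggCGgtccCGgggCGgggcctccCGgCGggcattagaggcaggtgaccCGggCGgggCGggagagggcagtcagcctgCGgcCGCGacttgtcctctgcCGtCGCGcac
Sfrp2 promoter: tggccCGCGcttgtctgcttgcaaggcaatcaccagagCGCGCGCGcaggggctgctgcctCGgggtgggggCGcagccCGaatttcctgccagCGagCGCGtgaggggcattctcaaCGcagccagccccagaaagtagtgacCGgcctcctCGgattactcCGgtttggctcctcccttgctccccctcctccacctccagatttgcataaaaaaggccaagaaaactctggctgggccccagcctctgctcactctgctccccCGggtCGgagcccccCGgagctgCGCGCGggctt
The Fzd5 window holds 38 CG pairs and the Sfrp2 window 22, beside a median of 7 over all 32851 promoters of this length in the table. Of the members, 8 matched the table with 13 entries whose median was 22, and Sfrp1 and Lrp6 had no entry.

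**Figure D2:**
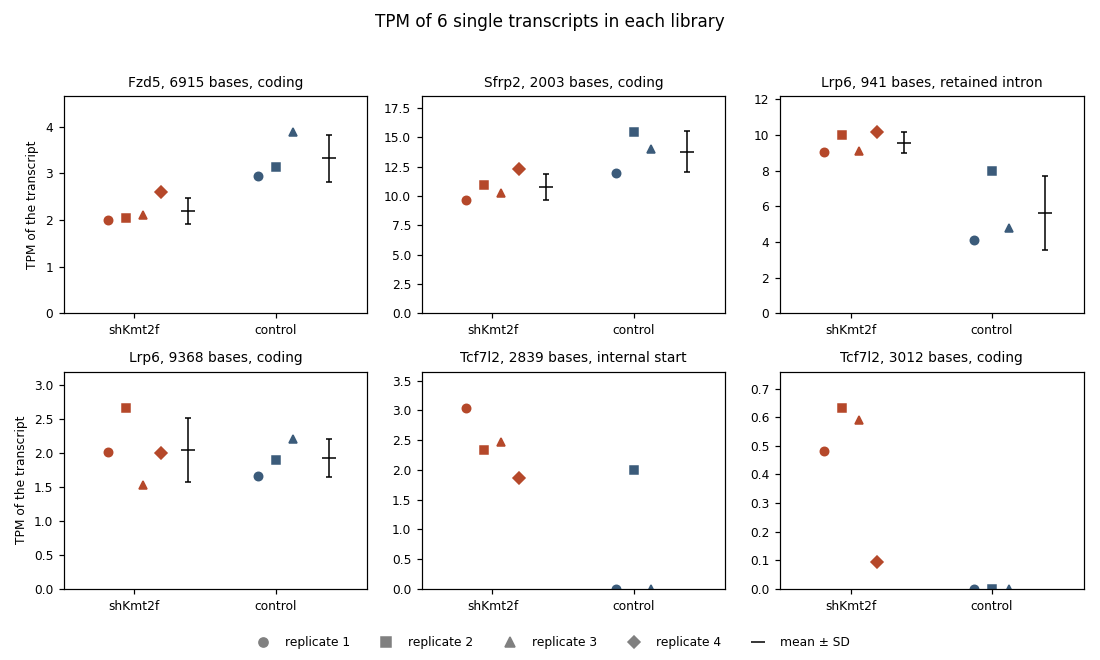
TPM of 6 single transcripts (vertical axes, linear and from 0) in the 4 shKmt2f libraries at left and the 3 control libraries at right of each panel, with the mean ± SD where no library is listed at 0. The Fzd5 transcript of 6915 bases is lower and the Lrp6 transcript of 941 bases higher in all shKmt2f libraries, while the Lrp6 coding transcript of 9368 bases overlaps.

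Lrp6 (ENSMUSG00000030201, chromosome 6, 134446476 to 134566965, minus strand), the co-receptor, had the largest gene-level fold change of the members. It had 12.8, 14.3, 12.1 and 14.8 TPM in shKmt2f libraries and 6.24, 10.3 and 10.2 TPM in control libraries, with means of 13.5 ± 1.26 TPM in shKmt2f (SD, n = 4) and 8.91 ± 2.31 TPM in control libraries (SD, n = 3). All shKmt2f values lie above all control values. The log2 fold change was 0.57 (SE 0.19), with a limma adjusted p of 0.0724 (0.0141 before adjustment), so the gene did not pass. Without control replicate 2 its adjusted p in limma was 0.0436, and without each of the other 6 libraries it lay between 0.0960 and 0.182.

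Most of the difference between the Lrp6 means was in a transcript typed as a retained intron, while the full coding transcript overlapped between groups. A transcript of 941 bases (ENSMUST00000203235) carries 68.3% of the gene's mean TPM. It is a single block at chr6:134540774-134541714 that shares 63 bases with coding exon 2 and runs 878 bases on into the next intron. It had 9.02, 9.99, 9.09 and 10.2 TPM in shKmt2f libraries and 4.12, 7.99 and 4.80 TPM in control libraries, with no overlap. Its log2 fold change was 0.71 (SE 0.21), with a limma adjusted p of 0.0926 (0.00847 before adjustment), the smallest of any member transcript. Without control replicate 2 the adjusted p in limma was 0.00911, and without each of the other 6 libraries it lay between 0.161 and 0.244. In the authors' deposited table its effect is 0.49 with q = 0.0247. The coding transcript of 9368 bases, which spans 23 exons and encodes the whole receptor, had 2.01, 2.67, 1.52 and 2.00 TPM in shKmt2f libraries and 1.66, 1.89 and 2.21 TPM in control libraries. Its groups overlap, with a log2 fold change of 0.053 (SE 0.19) and a limma adjusted p of 0.899. Another retained intron transcript, of 3246 bases, stood at 0.134, 0.159, 0.0879 and 0.154 TPM in shKmt2f and 0.0237, 0.0254 and 0.0687 TPM in control libraries. These groups do not overlap, and the exact permutation p of 0.0286 is the smallest the design can give. The remaining Lrp6 transcripts, of 722 and 727 bases, overlapped between groups. Summed without the 941-base transcript, Lrp6 stood at 3.94 ± 0.706 TPM in shKmt2f (SD, n = 4) and 3.28 ± 1.84 TPM in control libraries (SD, n = 3).

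The stretch where the 941-base transcript leaves the coding exon is shown because it sets this transcript apart from the receptor's coding transcript. The deposited TPM is 1 value for the whole transcript, so its exon and intron parts were not measured apart. The stretch runs along the minus strand at chr6:134541592-134541714, with the 63 exon bases in capitals and the first 60 intron bases in lower case.
Lrp6 exon 2 into intron 2: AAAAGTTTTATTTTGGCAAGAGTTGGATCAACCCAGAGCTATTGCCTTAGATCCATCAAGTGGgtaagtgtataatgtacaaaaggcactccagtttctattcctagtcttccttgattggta

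The 941-base transcript has a GC content of 34.6% and the 3246-base one 37.6%, while the coding transcript has 46.0%. Low-GC features stood higher in shKmt2f libraries across the whole table: the fifth of tested transcripts with the lowest GC content, 26.9% to 44.8%, had a median log2 fold change of 0.41, and the fifth with the highest GC content one of -0.052. Over all 7472 tested retained intron transcripts the median was 0.034, and the class held 10.1% to 10.9% of TPM in shKmt2f libraries and 9.72% to 10.95% in control libraries. Corrected for GC content and length in each library, the Lrp6 gene had a log2 fold change of -0.18 (limma adjusted p = 0.504), and over protein-coding transcripts only it had one of 0.14 (limma adjusted p = 0.723).

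**Figure D3:**
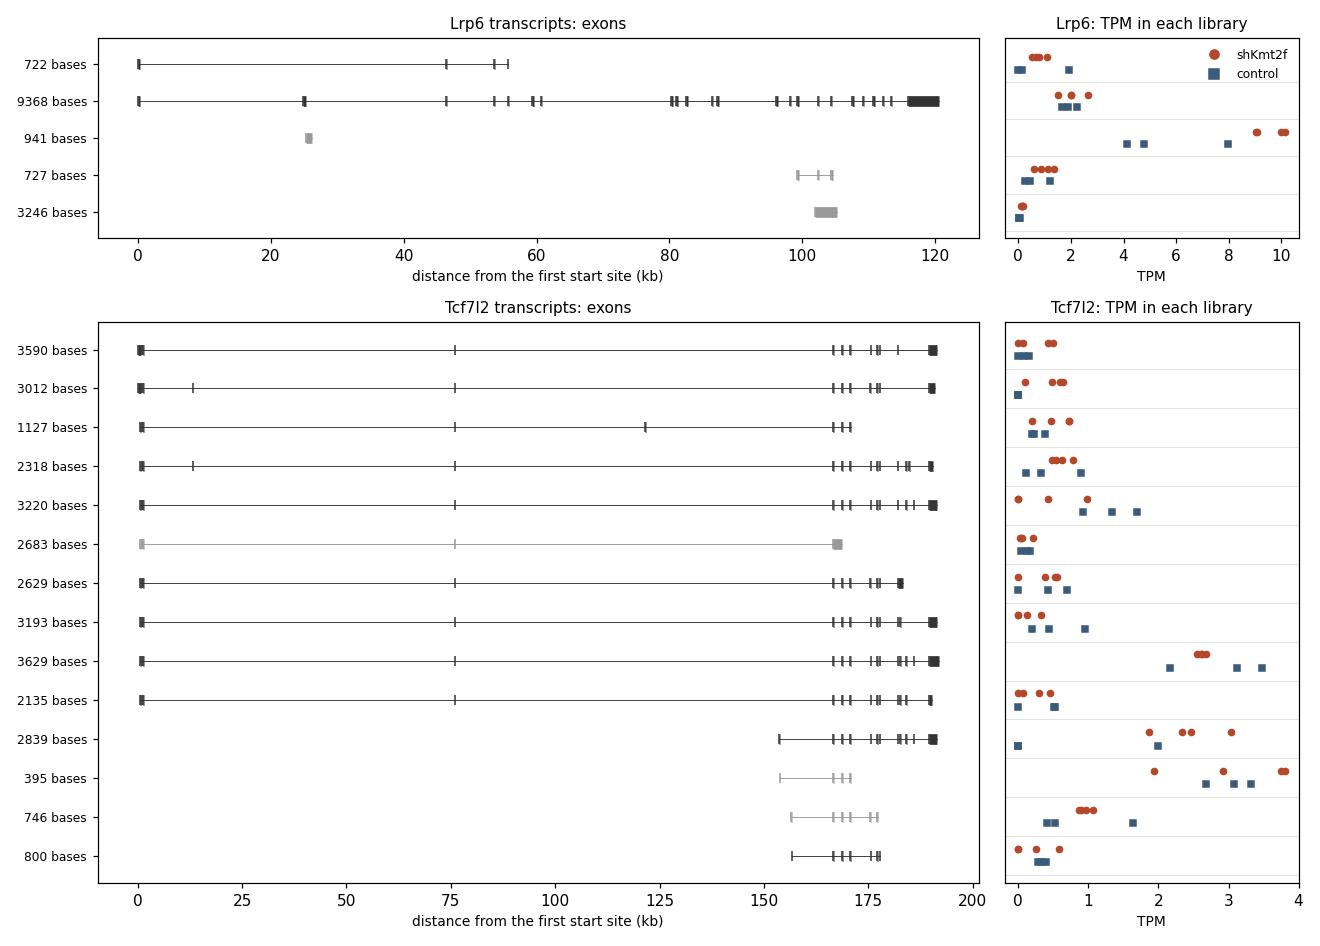
Exons of the listed Lrp6 (top) and Tcf7l2 (bottom) transcripts against distance from the first start site in kilobases, dark for protein-coding and grey for other types, with the TPM in each library at right (circles shKmt2f, squares control). The Lrp6 transcript of 941 bases is a single block beside an early exon and stands at 9.02 to 10.2 TPM in shKmt2f and 4.12 to 7.99 TPM in control libraries; 4 Tcf7l2 transcripts begin at internal starts.

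Ctnnb1 (ENSMUSG00000006932, chromosome 9, 120929216 to 120960507, plus strand), the gene of β-catenin, had 651, 802, 646 and 587 TPM in shKmt2f libraries and 523, 602 and 746 TPM in control libraries. The groups overlap over most of their range, and the log2 fold change was 0.11 (SE 0.15), with a limma adjusted p of 0.645. Transcripts typed protein coding held 27.1% of this TPM, and those 2 with a complete reading frame only 3.24%. Together these 2 had 25.2, 27.3, 16.6 and 31.7 TPM in shKmt2f libraries and 10.8, 18.7 and 17.4 TPM in control libraries, with shKmt2f replicate 3 inside the control range. Of the pair, the transcript of 2702 bases did not overlap between groups, at 19.9, 22.3, 14.9 and 25.1 TPM in shKmt2f and 6.96, 14.7 and 14.7 TPM in control libraries. Its log2 fold change was 0.76 (SE 0.28), with a limma adjusted p of 0.149 (0.0244 before adjustment). The lowest shKmt2f value, 14.9 TPM, lies close to the highest control value, and the authors' deposited table gives q = 0.789. The other transcripts above 10% of the gene's TPM were 4 short ones. They are a retained intron of 1292 bases at the 3' end (24.0%), decay-typed transcripts of 692 and 795 bases (17.96% and 10.4%) and an incomplete coding transcript of 505 bases (15.1%). Their log2 fold changes lay between 0.028 and 0.19, and none passed. The share of the 1292-base transcript in the gene was 23.5% ± 0.582 in shKmt2f (SD, n = 4) and 24.9% ± 0.748 in control libraries (SD, n = 3), with an exact permutation p of 0.0286.

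Axin2 (ENSMUSG00000000142, chromosome 11, 108920349 to 108950783, plus strand) encodes a scaffold of the destruction complex and is widely used as a readout of β-catenin signalling. Its level was very low, at 0.112, 0.165, 0.213 and 0.125 TPM in shKmt2f libraries and 0.137, 0.319 and 0.209 TPM in control libraries. The groups overlap, and at this level limma was not applied. The exact permutation test gave p = 0.257.

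Of the DNA-binding effectors, Lef1 (ENSMUSG00000027985, chromosome 3, 131110471 to 131224356, plus strand) had 6.45, 4.68, 6.28 and 4.06 TPM in shKmt2f libraries and 4.71, 3.92 and 7.11 TPM in control libraries. These groups overlap fully, with a log2 fold change of 0.041 (SE 0.22) and a limma adjusted p of 0.924. A retained intron transcript of 345 bases made up 71.8% of its mean TPM. The 3 coding transcripts together had 1.06, 0.754, 1.05 and 0.584 TPM in shKmt2f libraries and 0.883, 0.832 and 1.25 TPM in control libraries, and each of the 3 was listed at 0 in at least 1 library.

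Tcf7l1 (ENSMUSG00000055799, chromosome 6, 72626378 to 72789254, minus strand), known mostly as a repressor of Wnt targets, had 5.42, 5.30, 5.73 and 4.92 TPM in shKmt2f libraries and 5.31, 5.59 and 6.92 TPM in control libraries. It was among the steadiest members, with a log2 fold change of -0.12 (SE 0.14) and a limma adjusted p of 0.596. Its TPM is spread over 3 coding transcripts of 463, 1888 and 3042 bases. They had log2 fold changes of -0.13, -0.23 and 0.11 in that order, and none passed.

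Tcf7l2 (ENSMUSG00000024985, chromosome 19, 55741820 to 55933654, plus strand) had 12.8, 11.7, 12.9 and 11.5 TPM in shKmt2f libraries and 8.74, 11.6 and 13.5 TPM in control libraries. The shKmt2f values all lie within the control range, and the log2 fold change was 0.13 (SE 0.16), with a limma adjusted p of 0.632. The gene has 14 listed transcripts, 10 that begin within 1000 bases of the first start and 4 that begin at internal starts from 153690 bases further on. β-catenin binds the amino-terminal end of the protein, which the early exons encode. Transcripts of the first start region summed to 4.76, 5.95, 5.77 and 5.69 TPM in shKmt2f and 4.92, 6.10 and 8.13 TPM in control libraries. Those of the internal starts summed to 8.07, 5.75, 7.09 and 5.85 TPM in shKmt2f and 3.82, 5.48 and 5.34 TPM in control libraries. These 2 sums were formed from the annotation and were not tested.

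Single Tcf7l2 transcripts differed by more than the gene, in both directions, and none passed in limma. The internal-start coding transcript of 2839 bases (ENSMUST00000111646), with 897 coding bases, had 3.04, 2.33, 2.47 and 1.86 TPM in shKmt2f libraries. In control libraries it had 1.99 TPM in replicate 2 and was listed at 0 in replicates 1 and 3. Control replicate 2 thus lies within the shKmt2f range. The log2 fold change was 1.24 (SE 0.39), with a limma adjusted p of 0.1104 (0.0128 before adjustment), and the authors' deposited table gives q = 0.142. Without control replicate 2, the only control library in which it is above 0, the adjusted p in limma was 0.00427, and without each of the other 6 libraries it lay between 0.167 and 0.294. The transcript of 3012 bases (ENSMUST00000111658) had 0.482, 0.633, 0.591 and 0.0949 TPM in shKmt2f libraries and was listed at 0 in all 3 control libraries. It was below the level for limma, and its exact permutation p was 0.0571. The authors' deposited table gives it q = 0.0329. Other coding transcripts stood lower in shKmt2f on average. The one of 3220 bases (ENSMUST00000127233) was listed at 0 in shKmt2f replicates 1 and 2 and had 0.426 and 0.985 TPM in replicates 3 and 4, against 1.34, 0.927 and 1.69 TPM in control libraries. The one of 3193 bases (ENSMUST00000061496) had 0.319 and 0.119 TPM in shKmt2f replicates 1 and 2 and was listed at 0 in replicates 3 and 4, against 0.947, 0.431 and 0.192 TPM in control libraries. Both overlap between groups and were below the level for limma, and each had an exact permutation p of 0.114. The authors' deposited table gives them effects of -3.39 (q = 0.400) and -3.06 (q = 0.314). The coding transcript of 3629 bases, with 1377 coding bases, had 2.55, 2.67, 2.62 and 2.60 TPM in shKmt2f and 2.17, 3.12 and 3.48 TPM in control libraries. Its share of the gene was 21.4% ± 1.51 in shKmt2f (SD, n = 4) and 25.9% ± 1.10 in control libraries (SD, n = 3), with an exact permutation p of 0.0286. A processed transcript of 395 bases from the internal starts made up 26.0% of the gene and differed by 0.0036 on log2 (SE 0.21), with a limma adjusted p of 0.995.

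The 3012-base transcript has no exonic base of its own among the 14. Only 2 of its 11 exon junctions occur in no other listed Tcf7l2 transcript, and these joins are shown because they are the sequence it does not share. They are given with 30 bases on each side and the downstream exon in capitals, and they span chr19:55910669-55912559 and chr19:55919618-55931434 on the plus strand, introns included.
Tcf7l2 exon 7 to exon 8 junction: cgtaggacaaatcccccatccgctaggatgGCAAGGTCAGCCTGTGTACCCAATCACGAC
Tcf7l2 exon 11 to exon 12 junction: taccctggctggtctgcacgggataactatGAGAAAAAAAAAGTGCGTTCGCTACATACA

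RefSeq lists 2 Tcf7l2 promoters, 1 at the first start region and 1 shortly before the first internal start, and both are shown for that reason. The internal starts of the listed transcripts are at chr19:55895510, 55895662, 55898309 and 55898553. All of them lie past the end of the internal window, so which of them this promoter serves cannot be told here. The windows are chr19:55741560-55741859 and chr19:55895071-55895370 on the plus strand, with CG pairs in capitals, and the 2839-base transcript begins 189 bases past the RefSeq start of the internal one.
Tcf7l2 promoter 1: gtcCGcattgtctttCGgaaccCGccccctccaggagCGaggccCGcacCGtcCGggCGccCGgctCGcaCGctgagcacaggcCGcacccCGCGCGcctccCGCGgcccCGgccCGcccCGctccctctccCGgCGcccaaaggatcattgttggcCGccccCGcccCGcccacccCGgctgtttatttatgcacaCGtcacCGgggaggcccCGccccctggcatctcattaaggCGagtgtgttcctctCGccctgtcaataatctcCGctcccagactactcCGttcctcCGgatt
Tcf7l2 promoter 2: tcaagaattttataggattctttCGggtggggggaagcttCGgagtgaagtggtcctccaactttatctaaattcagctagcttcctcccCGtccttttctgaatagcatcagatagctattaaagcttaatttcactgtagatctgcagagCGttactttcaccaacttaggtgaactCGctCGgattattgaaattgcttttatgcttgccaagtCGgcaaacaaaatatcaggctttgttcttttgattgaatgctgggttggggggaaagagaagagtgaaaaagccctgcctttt
The first window holds 34 CG pairs with a GC content of 70.0%, and the internal one 7 with 42.0%. Member promoters were searched on both strands for CTTTGAT and CTTTGTT, letters of the element that TCF and LEF proteins bind. Of the 13 entries 1 held a match, the internal Tcf7l2 window, with CTTTGTT, where 9.33% of all promoters of this length held either.

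Over all 49 member transcripts, 29 reached the level for limma and 0 passed, where 2.24% of all 37024 tested transcripts passed. Unadjusted p was below 0.05 for 4 of the 29, the transcripts of Fzd5, Lrp6, Ctnnb1 and Tcf7l2 named above, against 23.4% of all tested transcripts. Ranges did not overlap for 3 of the 29, against 21.6% of those tested, and for 5 of all 49, against 18.0% of all listed. The authors' deposited table has q below 0.05 for 4 of the 49, in Fzd5, Sfrp2, Lrp6 and Tcf7l2, beside 5.51% of all its entries. The effect was above 0 for 2 of the 4, where 3.43% of all entries were called with an effect above 0, and below 0 for 2, where 2.08% were. Exact permutation tests were run on 20 transcript levels, 17 shares and Axin2, 38 in all, and 3 reached the smallest possible p. Unlike the counts above, this one has no share over all features beside it, so whether 3 of 38 is many cannot be told here.

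**Figure D4:**
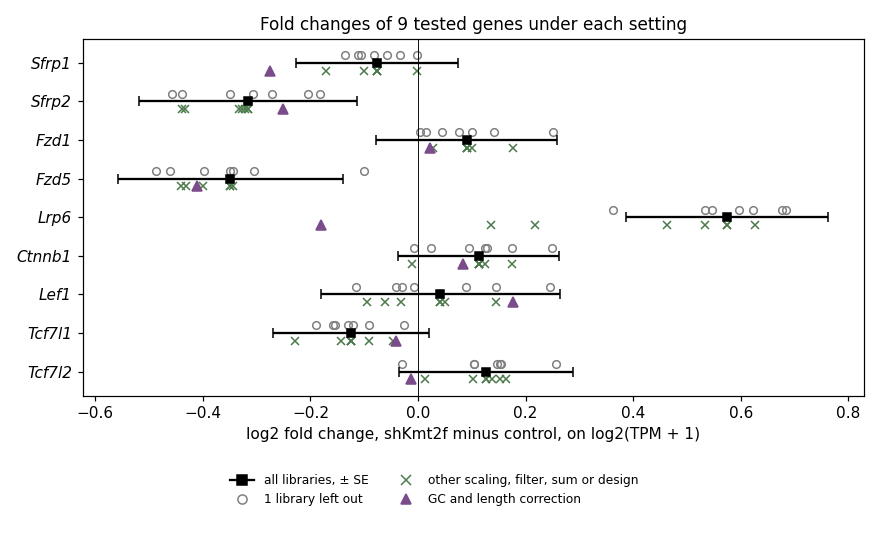
Log2 fold change of the 9 tested genes, shKmt2f minus control on log2(TPM + 1) (horizontal axis), with its SE over all libraries (squares), with 1 library left out (open circles), under other scalings, filters, sums or designs (crosses) and after a GC and length correction (triangles). Sfrp2, Fzd5, Sfrp1 and Tcf7l1 lie below 0 and Fzd1 above it under every setting drawn, whereas Lrp6 moves from 0.57 to -0.18 under the GC and length correction.

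The wider Wnt pathway was followed in 115 genes, of which 94 are listed and 74 were tested. Of the 74, 5 were higher and 1 was lower in shKmt2f libraries at a limma adjusted p of 0.05, or 8.11%, beside 14.1% of all genes, of which 10.4% were higher and 3.69% lower, and their median log2 fold change was 0.12. Without the members the counts were 5 higher and 1 lower of 65, or 9.23%. Among 6 tested ligands and genes of Wnt secretion 0 passed. Porcn, which attaches the lipid that Wnts need for release, stood at 19.96 ± 1.40 TPM in shKmt2f and 16.5 ± 2.04 TPM in control libraries, and the ligand gene Wnt5b at 8.514 ± 1.603 TPM and 7.74 ± 2.04 TPM in the same order (SD, n = 4 and 3). Of 10 receptors 1 rose, Fzd6, a Frizzled linked to tissue polarity. It had 2.54, 2.57, 2.30 and 2.41 TPM in shKmt2f libraries and 1.30, 1.44 and 1.15 TPM in control libraries (log2 fold change 0.59 with an SE of 0.13, limma adjusted p = 0.0283). None of 10 secreted and surface modulators passed, and Dkk3, the most abundant of them, stood at 366 ± 35.4 TPM in shKmt2f and 354 ± 62.8 TPM in control libraries.

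Of 21 genes of the cytoplasmic relay and destruction complex, 2 rose. Apc, a scaffold of that complex, averaged 18.9 ± 4.32 TPM in shKmt2f and 8.12 ± 3.66 TPM in control libraries, with a fold change of 1.18 on log2 (SE 0.28) and a limma adjusted p of 0.0335. Csnk1g3, a casein kinase 1 gene, averaged 17.8 ± 2.26 TPM in shKmt2f and 8.69 ± 3.60 TPM in control libraries, a fold change of 1.01 on log2 (SE 0.23), with a limma adjusted p of 0.0305. Of 16 nuclear effectors 1 rose, the co-repressor gene Ctbp2, at 107 ± 13.04 TPM in shKmt2f and 74.4 ± 11.4 TPM in control libraries (log2 fold change 0.52, limma adjusted p = 0.0426). In the planar polarity branch 1 of 8 rose, Daam1, which links Dishevelled to the actin cytoskeleton, at 6.25 ± 0.841 TPM in shKmt2f and 3.58 ± 1.03 TPM in control libraries (log2 fold change 0.68, limma adjusted p = 0.0445). Feedback and target genes had 1 of 7 lower. It was the cyclin gene Ccnd1, a gene of dividing retinal progenitors that is also on the progenitor marker list, with 58.7, 63.5, 67.2 and 71.4 TPM in shKmt2f and 115, 139 and 136 TPM in control libraries (log2 fold change -0.98 with an SE of 0.12, limma adjusted p = 0.00605). The other Wnt feedback genes tested, Nkd1, Notum, Apcdd1, Lef1, Myc and Tnfrsf19, lay between -0.22 and 0.23. Ccnd1 remained past the threshold without each of the 7 libraries, whereas the 5 higher calls were lost without any 1 library other than control replicate 2. The list then counted 1 call without control replicate 1 or 3 or shKmt2f replicate 2, 3 or 4, and 2 without shKmt2f replicate 1. After the GC and length correction 5 list genes passed, among them Ctbp2 and Ccnd1 but not Fzd6, Apc, Csnk1g3 or Daam1. Ctbp2 did not pass with median-ratio scaling or with no filter, Daam1 not with no filter, and Apc not over protein-coding transcripts only.

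**Figure D5:**
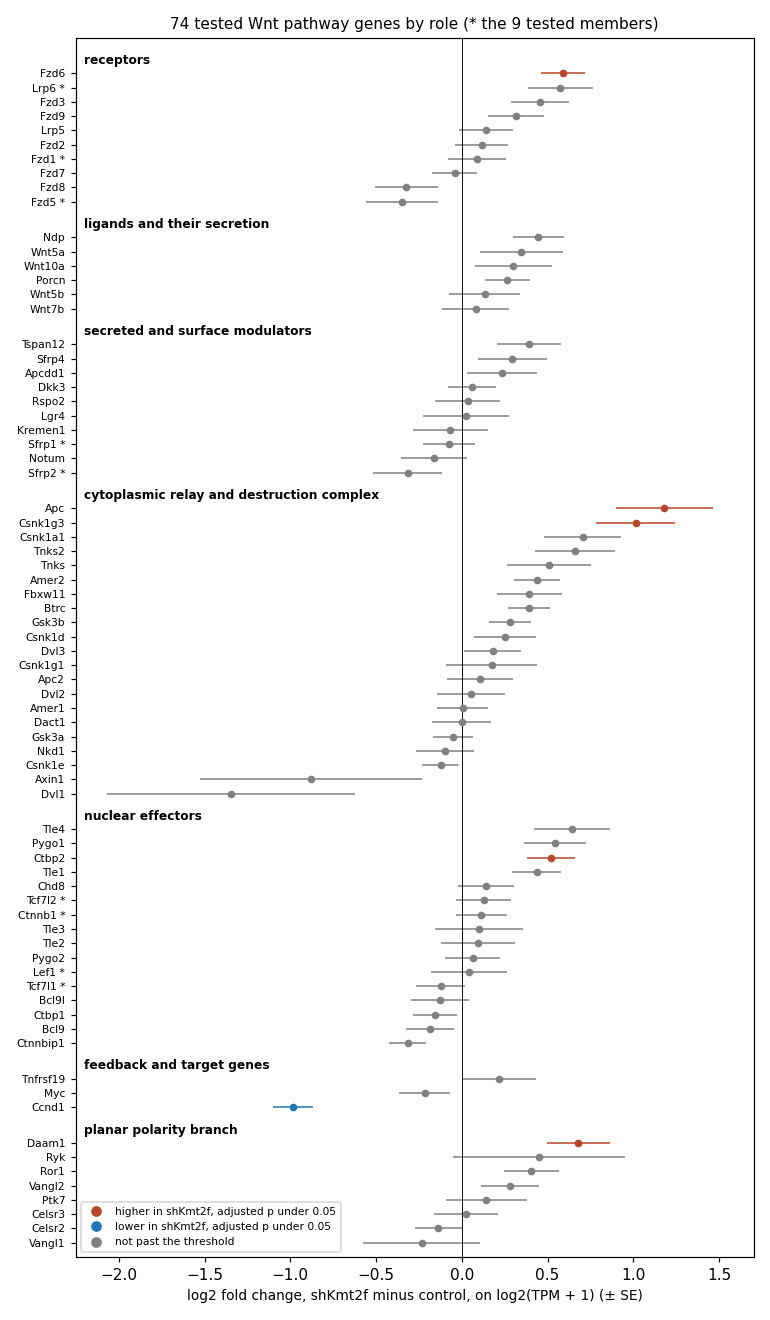
Log2 fold change, shKmt2f minus control on log2(TPM + 1) with its SE (horizontal axis), of the 74 tested Wnt pathway genes grouped by role, each gene drawn once and members marked by an asterisk. The 5 genes higher in shKmt2f libraries lie between 0.52 and 1.18, and Ccnd1, the 1 lower gene, at -0.98.

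Since no member passed, the genes most alike across libraries were sought for Ctnnb1, the member of highest level. Over the 7 libraries, among 7777 tested genes with a mean of at least 10 TPM, the 3 highest Pearson correlations of log2(TPM + 1) were those of Nisch (r = 0.987), Gpat4 (r = 0.986) and Elp2 (r = 0.985). They are the top of 7777 values over 7 libraries and describe these libraries only.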

How the data were processed

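Messenger RNA of EGFP-sorted cells was profiled in 4 shKmt2f and 3 control libraries, with SMART-Seq v4 cDNA made from 1 ng of RNA and Nextera DNA Flex libraries, per the labels' protocols. The design text speaks of embryonic day 17 where the sample labels give 17.5. Salmon 0.11.3, sleuth 0.30.0 and the build GRCm38.p6 are named per the submitters' processing notes. The authors deposited TPM per transcript. They also deposited a p-value, a q-value and an effect on a natural log scale, which are the same in all 7 tables, per the file headers and the values. Each table lists 55475 transcripts, of which 71 hold no TPM. TPM totals lay between 991445 and 992309, read counts were not used here, and no counting interval is given.

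TPM was summed per gene. Features that reached 1 TPM in 3 or more libraries were tested with limma 3.58.1 in R 4.3.3 (trend, robust, group as the only term, Benjamini-Hochberg adjustment over all features, threshold 0.05) on log2(TPM + 1). The procedure was tested on simulated data. Below that level, and for transcript shares of at least 10% of a gene, exact two-sided permutation tests over the 35 possible assignments were run, with log2(TPM + 0.1) for transcripts and log2(TPM + 1) for genes. Alternatives were median-ratio scaling, other filters, a pseudocount of 0.1, the replicate number as a block, protein-coding transcripts only, length-weighted TPM, a loess correction (span 0.3) for GC content and length, and leaving out each library. Structure, type and GC content came from GENCODE transcripts of GRCm38, of which 55341 matched without and 54423 with the version number, and promoters from RefSeq. Where reads of overlapping transcripts were divided, the authors' estimates stand as deposited.

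The members, the wider Wnt list and the markers were chosen with earlier results of these data known. The text names all members, their transcripts of at least 10% of a gene's TPM, up to 4 passing genes per role group by adjusted p or up to 2 of highest level where none passed, and the 3 genes most alike to the highest member. Transcripts below 10% were named after their values were seen.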

Additional observations from a re-analysis of the deposited data

Results flagged for a closer look

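In 2 Ctnnb1 transcripts, shKmt2f replicate 2 stood far from the other shKmt2f libraries. The decay-typed transcript of 795 bases had 85.6 TPM in that library and between 64.7 and 67.6 TPM in the other 3. The incomplete coding transcript of 505 bases had 133.7 TPM there and between 89.5 and 92.9 TPM in the other 3. Both passed Dixon's 95% critical value for 4 samples, with gaps of 0.861 and 0.924 of the group's range. In all 27 groups of 4 values were examined, and chance passes about 1 in 20. The same library also held the highest Ctnnb1 sum, 802 TPM. The control group of 3 was not examined in this way.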

How the results depend on the processing

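No member gene passed under any alternative except leaving out control replicate 2, where 1 did, Lrp6 (log2 fold change 0.68, limma adjusted p = 0.0436), so the count lay between 0 and 1 without single libraries. Member transcripts called lay between 0 and 2 without single libraries, the 2 again without control replicate 2. Over all genes, 1755 calls became 283 to 3004 without single libraries, and the Wnt list's 6 became 1 to 9. With median-ratio scaling the median over all genes shifted by -0.11, and 57.7% of 1940 calls were higher, against 73.8% as reported. After the GC and length correction 46.7% of 1316 calls were higher. Without single libraries the share of higher calls lay between 49.4% (without shKmt2f replicate 2) and 81.0% (without control replicate 2). No filter left 1333 calls.

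Signs turned only for fold changes that did not pass. Lrp6 was -0.18 after the GC and length correction. Ctnnb1 was -0.012 with median-ratio scaling, and without single libraries it lay between -0.0067 and 0.25. Tcf7l2 was -0.014 after the GC and length correction and lay between -0.030 and 0.26 without single libraries. Lef1 was -0.062 with median-ratio scaling, -0.095 over protein-coding transcripts and -0.031 with length weighting, and lay between -0.11 and 0.25 without single libraries. The low ends were reached without control replicate 1 for Ctnnb1 and Tcf7l2 and without control replicate 2 for Lef1. The cause was not tested.

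Same-numbered deviations correlated at 0.0793, 0.0651 and 0.0597 across genes, and differently numbered ones at -0.169 to 0.0976. The same-numbered values lie inside that range, and so few pairs cannot decide whether the replicate numbers pair the libraries. A block for the replicate number takes shKmt2f replicate 4 out of the group comparison, since no control library has that number. Lrp6 had a log2 fold change of 0.53 both with the block and without that library. With the replicate number as a block, 1377 genes, 6 list genes and 0 members passed, with Lrp6 at a limma adjusted p of 0.148. The 6 list genes then lacked Fzd6 and Daam1 and included Csnk1a1 and Tnks2. TPM keeps no depth, so how far low values such as those of Axin2 are limited by counting is unknown.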
